A study of Mus musculus with 6 samples.

Results

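The genes described here are Foxp3 and the 5 members of the Ikaros zinc finger family, Ikzf1 to Ikzf5, in regulatory T (Treg) cells of pancreas and spleen. They were chosen by name, and a gene's value is that of its probe set annotated to it alone, or of the brightest such probe set where there are several. All 6 genes had a probe set of their own, among 19752 genes measured, and together they had 7 probe sets.

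Treg cells are the CD4 T cells that restrain immune responses, and Foxp3 encodes the forkhead transcription factor that defines them. Ikaros family proteins bind DNA through zinc fingers near one end and pair with each other through zinc fingers at the other, and they recruit chromatin-remodelling and histone deacetylase complexes to their targets. Ikzf1 encodes Ikaros, the founding member and a regulator of lymphocyte development. Ikzf2 encodes Helios, which is abundant in most Treg cells and helps keep their phenotype stable under inflammation. Ikzf3 encodes Aiolos, known from B cells and several T helper subsets. Ikzf4 encodes Eos, which works with Foxp3 as a corepressor, and Ikzf5 encodes Pegasus, the most divergent member.

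The 3 pancreas and 3 spleen samples came from prediabetic female NOD.Foxp3-ires-gfp mice at 10 weeks of age, with the genetic background given as NOD NRB_SFB+ for all. NOD mice develop autoimmune diabetes spontaneously. All samples carried the reporter, which couples green fluorescent protein to Foxp3, and the cells were double-sorted as DAPI- CD45+ TCRb+ CD4+ GFP+ cells on a MoFlo sorter. Amplified RNA was measured on Affymetrix Mouse Gene 1.0 ST arrays, and the labels do not say whether a sample held 1 mouse or a pool. Each p-value thus reflects the spread among these samples alone, and that spread may be technical. The gate itself reads the Foxp3 reporter, so Foxp3 was used to choose the cells in both tissues.

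Values are log2 of the deposited intensity. Median intensity ran from 82.0 to 92.0 over the 6 arrays, and the interquartile range of log2 values ran from 2.23 on pancreas array 3 to 3.07 on pancreas array 1, so the arrays differed in width. An intensity of 63.9, the 95th percentile of the mean over olfactory and vomeronasal receptor genes, served as background. All 6 genes were above it on all 6 arrays. The levels of different genes are not set against each other, since probe sets differ in brightness. In the labelled cell type, T cell identity genes such as Cd3e, Cd3g, Cd5, Cd3d and Ptprc were all above background. Of 9 measured, 0 passed the test between tissues, beside 0.678% of all genes, so the count is near that share. Arrays set the precision by their number, and fewer cells of a type cannot be told apart from less RNA per cell in such bulk samples.

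The promoter windows that the RefSeq table holds for these genes are shown because Ikaros family proteins recognise a short core, GGGAA, that can be looked for in them. The table (build GRCm38.p6) matched 3 of the 6 genes, with 5 start sites, and the first Ikzf1 start site held none of the motifs searched and is not printed. Each window is the 250 bases before a start site, 5′ to 3′ on the gene's strand. Capitals mark motifs found on either strand. The motifs searched, on both strands, were GGGAA for the Ikaros core, TGTTTAC for forkhead proteins, TGTGGT for RUNX proteins, TTCNNNGAA for STAT proteins, TGANTCA for AP-1 and TATAAA for the TATA box. No motif found overlapped another.
Foxp3, first start site, chrX:7579426-7579675, plus strand: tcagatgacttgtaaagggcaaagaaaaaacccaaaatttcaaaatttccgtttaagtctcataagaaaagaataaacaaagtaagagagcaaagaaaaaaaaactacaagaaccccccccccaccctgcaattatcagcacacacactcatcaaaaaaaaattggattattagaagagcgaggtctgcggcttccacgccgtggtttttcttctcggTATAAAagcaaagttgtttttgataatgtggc
Foxp3, second start site, chrX:7580233-7580482, plus strand: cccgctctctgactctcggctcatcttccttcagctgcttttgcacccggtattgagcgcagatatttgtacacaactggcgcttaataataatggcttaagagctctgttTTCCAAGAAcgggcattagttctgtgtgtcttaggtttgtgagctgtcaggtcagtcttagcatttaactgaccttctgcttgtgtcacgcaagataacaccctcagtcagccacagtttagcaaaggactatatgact
Ikzf1, second start site, chr11:11689927-11690176, plus strand: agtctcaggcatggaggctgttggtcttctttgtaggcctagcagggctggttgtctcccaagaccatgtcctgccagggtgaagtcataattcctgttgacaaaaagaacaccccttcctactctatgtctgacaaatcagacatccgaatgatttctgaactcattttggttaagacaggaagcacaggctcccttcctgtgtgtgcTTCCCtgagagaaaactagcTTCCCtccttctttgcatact
Ikzf5, chr7:131410479-131410728, minus strand: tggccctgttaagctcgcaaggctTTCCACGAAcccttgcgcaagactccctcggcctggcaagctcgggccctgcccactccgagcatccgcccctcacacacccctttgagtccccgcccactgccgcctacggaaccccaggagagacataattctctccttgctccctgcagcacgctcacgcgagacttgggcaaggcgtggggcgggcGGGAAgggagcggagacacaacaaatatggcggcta

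The Ikaros core was found 2 times before the second Ikzf1 start site and 1 time in the Ikzf5 window, and in neither Foxp3 window. It is a common word, present in 56.2% of all 32851 windows of this length. The first Foxp3 window held a TATA box from 32 to 27 bases before the start, as 12.4% of windows did. The second held a STAT motif from 139 to 131 bases before the start, and the Ikzf5 window held another from 226 to 218 bases before its start, against 7.02% of windows with one. The forkhead motif (3.17% of windows), the RUNX motif (14.0%) and the AP-1 motif (6.75%) were in none of the 5 windows. These matches describe letters only.

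Foxp3 RNA did not differ between Treg cells of pancreas and spleen beyond the spread of the arrays. It was at 11.47, 11.66 and 11.33 on pancreas arrays 1 to 3, against 11.15, 11.74 and 11.67 on spleen arrays 1 to 3. The tissues overlapped completely, since the highest and the lowest of the 6 values were both from spleen. The mean was 11.48 ± 0.16 in pancreas and 11.52 ± 0.32 in spleen (SD, n = 3 each). The fitted difference corresponded to a pancreas over spleen ratio of 0.975, with a 95% interval of 0.721 to 1.32.

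Ikzf1 and Ikzf3, the family members best known from lymphocytes in general, also overlapped between tissues. Ikzf1 was at 10.38, 10.33 and 9.98 in pancreas, against 9.92, 10.58 and 10.53 in spleen. Ikzf3 was at 10.83, 10.78 and 10.38 in pancreas, against 10.56, 10.94 and 10.87 in spleen. For both genes pancreas array 3 and spleen array 1 were the 2 low arrays and spleen array 2 was the highest. The log2 fold change was -0.11 ± 0.21 for Ikzf1 and -0.12 ± 0.19 for Ikzf3 (SE, 3 against 3 arrays).

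Ikzf2, the Helios gene, ordered the arrays differently from Foxp3. It was at 11.43, 11.17 and 11.26 in pancreas, against 11.06, 11.29 and 11.15 in spleen. The highest array was from pancreas and the lowest from spleen, with the other 4 mixed. Means were 11.29 ± 0.13 in pancreas and 11.16 ± 0.12 in spleen (SD, n = 3 each), a ratio of 1.09 with a 95% interval of 0.848 to 1.39. Of the 6 genes it had the most positive fitted difference.

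Ikzf4, the gene of the Foxp3 corepressor Eos, was at 8.82, 9.09 and 8.80 in pancreas, against 8.64, 9.08 and 8.95 in spleen. Pancreas array 2 and spleen array 2 were nearly equal and highest. Its log2 fold change was 0.01 ± 0.18 (SE), and 93.6% of the 19752 genes had a larger absolute change.

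Ikzf5 had 2 probe sets of its own. The brighter, used for the gene, was at 9.39, 9.37 and 9.10 in pancreas, against 9.25, 9.37 and 9.37 in spleen, a log2 fold change of -0.04 ± 0.16 (SE). The dimmer was at 7.48, 6.76 and 6.39 in pancreas, against 6.86, 6.88 and 7.39 in spleen. Both overlapped between tissues, but the dimmer spread more within pancreas, with an SD of 0.55 against 0.16 for the brighter. Their differences of means were -0.17 for the dimmer and -0.04 for the brighter.

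**Figure D1:**
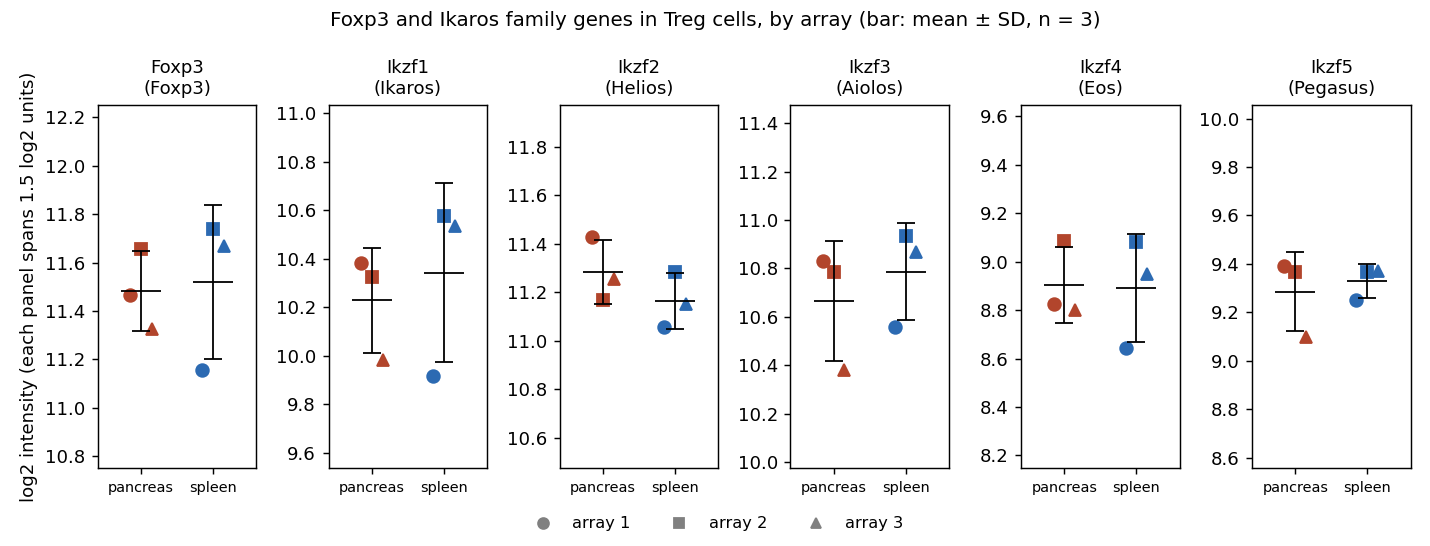
Log2 intensity (y axis, each panel spanning the same width of scale) of the 6 genes on 3 pancreas arrays (left) and 3 spleen arrays (right), with the mean and SD as bars. The points of the tissues overlap in every panel, and pancreas array 3 (triangle) and spleen array 1 (circle) are low for Foxp3, Ikzf1 and Ikzf3.

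None of the 6 genes passed the test between tissues. With limma fitted over all 19752 genes and Benjamini-Hochberg adjustment, each had an adjusted p of 1.00, and the smallest unadjusted p was 0.473, for Ikzf2. Over all genes 134 passed, or 0.678%, and at that share a count of 0 among 6 is no result about these genes. At an unadjusted p under 0.05 there were 6.84% of all genes and 0 of these 6. The arrays of the tissues did not overlap for 10.4% of all genes and for 0 of these 6. The 95% intervals, which are not adjusted for the number of genes, say how large a difference could have been missed. Their lower ends ran from a pancreas over spleen ratio of 0.667 for Ikzf1 to 0.848 for Ikzf2, and their upper ends from 1.23 for Ikzf3 to 1.39 for Ikzf2, so a 2-fold difference lay outside all 6. With each array set to the same median and interquartile range, the interval for Ikzf2 widened to a log2 fold change of -0.45 to 1.06, which includes a 2-fold difference. In that setting Foxp3 (0.17), Ikzf1 (0.03), Ikzf3 (0.03) and Ikzf5 (0.05) turned from below to above 0, so no direction is read for any of them. Among the fits with 1 array left out, the fit without spleen array 1 gave the most negative values, -0.22 for Foxp3 and -0.33 for Ikzf1, with an adjusted p of 0.993 and 0.988.

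**Figure D2:**
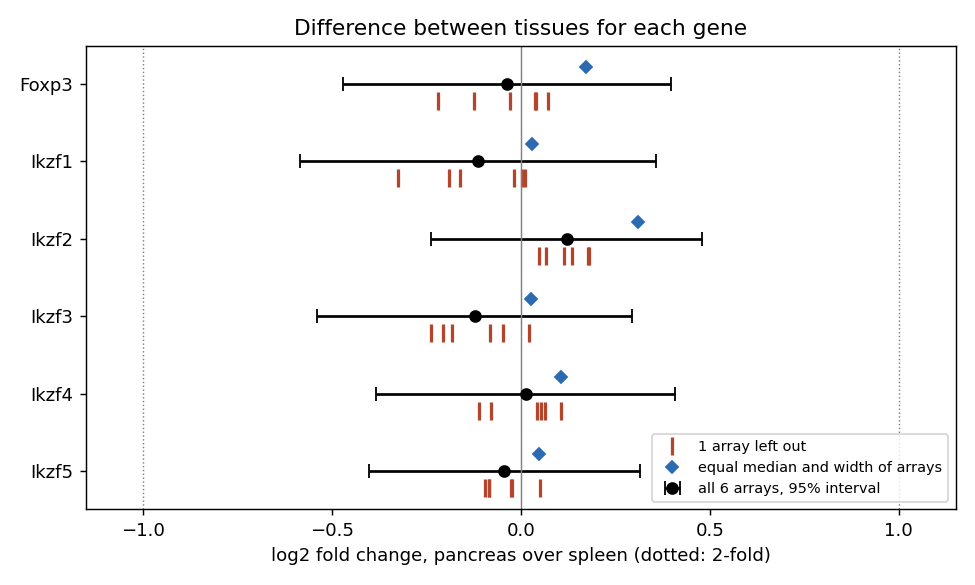
Log2 fold change of each gene, pancreas over spleen (x axis), with its 95% interval over 6 arrays (black), the 6 values with 1 array left out (red ticks) and the value with equal median and width of arrays (blue diamond). All 6 intervals include 0 and stay inside the dotted 2-fold lines, and the diamond lies right of the black point for every gene.

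Setting each family member against Foxp3 on the same array asks whether it changed unequally to the gene that defines the cells. Ikzf2 minus Foxp3 was -0.04, -0.49 and -0.07 on pancreas arrays 1 to 3, against -0.10, -0.45 and -0.52 on spleen arrays 1 to 3 (log2). These values overlapped, with pancreas array 2 among the low spleen values and spleen array 1 among the high pancreas values. The tissue difference was 0.16 for Ikzf2, 0.05 for Ikzf4, -0.0069 for Ikzf5, -0.08 for Ikzf1 and -0.09 for Ikzf3. In an exact two-sided permutation test over the 20 splits of the arrays, p ran from 0.40 for Ikzf1 and Ikzf2 to 1.0 for Ikzf5, and from 0.75 to 1.0 when adjusted over the 5 genes. The smallest p that 3 against 3 arrays allow is 0.10, so this test could not have passed 0.05.

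By Pearson correlation of the log2 values, Foxp3, Ikzf1, Ikzf3, Ikzf4 and Ikzf5 followed each other more closely over the arrays than they followed Ikzf2. The 10 pairs among those 5 genes had a Pearson correlation of 0.55 to 0.95 over 6 arrays, and the 5 pairs with Ikzf2 of 0.19 to 0.39. With each tissue's mean removed, the ranges were 0.57 to 0.96 and 0.20 to 0.60 and overlapped, with Ikzf1 and Ikzf2 at 0.60 above Ikzf4 and Ikzf5 at 0.57. By Spearman's rho, too, Ikzf1 and Ikzf2 (0.486) were above Foxp3 and Ikzf5 and above Ikzf4 and Ikzf5 (0.429 each). These are descriptions over 6 points, and all genes of a point come from 1 array, with its width and its level of T cell genes. The mean of the T cell identity list correlated with Foxp3 at 0.95, Ikzf1 at 0.97, Ikzf3 at 0.89, Ikzf4 at 0.82 and Ikzf5 at 0.80, and with Ikzf2 at 0.31. Array width correlated with Ikzf5 at 0.93, Ikzf3 at 0.90 and Ikzf1 at 0.82, and less with Foxp3 (0.61), Ikzf4 (0.40) and Ikzf2 (0.39). The part of either in these correlations was not tested. The range over the 6 arrays on the log2 scale was 0.29 for Ikzf5, 0.37 for Ikzf2, 0.44 for Ikzf4, 0.56 for Ikzf3, 0.58 for Foxp3 and 0.66 for Ikzf1.

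**Figure D3:**
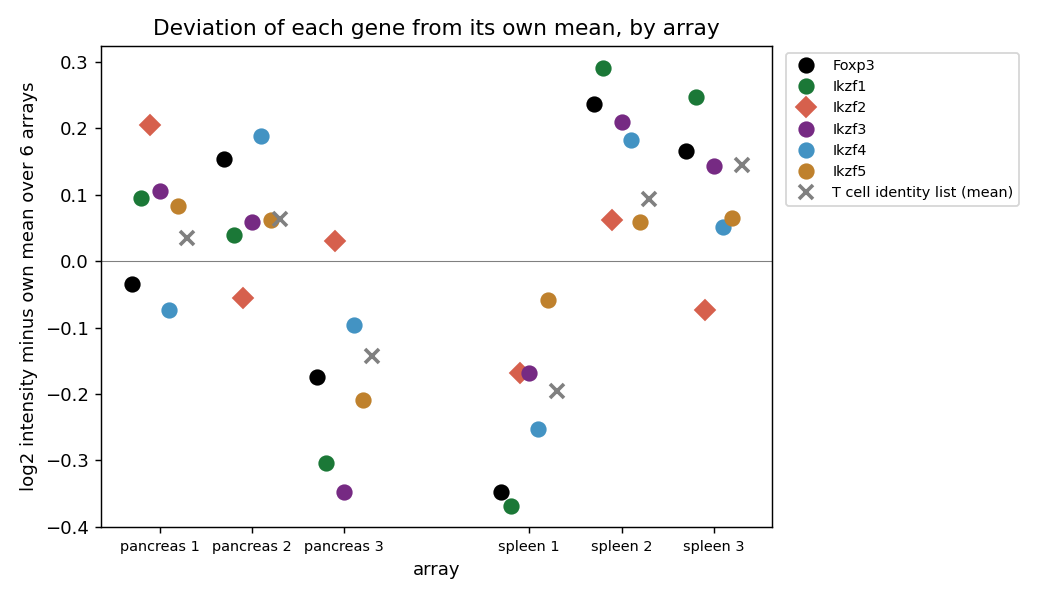
Log2 intensity of each gene minus its own mean over the 6 arrays (y axis), for 3 pancreas arrays (left) and 3 spleen arrays (right), with the mean of the T cell identity list as crosses. On pancreas array 3 the 5 genes other than Ikzf2 lie below their means while Ikzf2 (diamond) is at 0.03, and on spleen array 1 all 6 lie below.

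Genes above background, with an SD of at least 0.2 over arrays and no predicted or clone-type name, numbered 7255 or 7256. From these, the genes whose values followed each member most closely were named. For Foxp3 they were Gga1 (Pearson r = 0.999), the cytokine gene Osm (0.998) and Alas1 (0.996), the gene of the first enzyme of haem synthesis. For Ikzf1 they were Elp4 (0.997), Nrde2 (0.993) and Zfp687 (0.990), and for Ikzf3 Dennd1c (0.997), Trmt5 (0.993) and Atg2b (0.992). For Ikzf4 they were Crtc3 (0.991), Phc2 (0.986) and Pigt (0.986), and for Ikzf5 Sat1 (0.995), Jtb (0.993) and Ift172 (0.992). Ikzf2 had the loosest neighbours, Slfn9 (0.955), Gpr183 (0.954), a receptor gene for oxysterols that guide lymphocyte migration, and Gch1 (0.937). Only 11 genes passed r = 0.9 with Ikzf2, against 132 with Ikzf4, 256 with Foxp3, 305 with Ikzf1, 482 with Ikzf3 and 689 with Ikzf5. These are descriptions over 6 arrays of unequal width.

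Among the other FOXP genes, Foxp1, which encodes a forkhead protein of quiescent T cells, stood apart from Foxp3 without passing the test. Foxp1 was at 9.98, 9.63 and 9.69 in pancreas, against 10.43, 10.64 and 10.42 in spleen, so the tissues did not overlap. Its log2 fold change was -0.74 ± 0.17 (SE, limma adjusted p = 0.108). It passed in 2 of the 11 other settings, quantile normalization and array weights, and in 0 of 6 when any single array was dropped. Foxp4 had a log2 fold change of 0.15, and Foxp2 was below background on all 6 arrays.

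The regulators of the Foxp3 gene, those that bind it or shape its chromatin, held 1 call. Of 25 measured, 1 rose and 0 fell, against 0.547% and 0.132% of all genes, and the median log2 fold change was -0.05, beside -0.00091 over all genes. The gene that rose was Nr4a2, a nuclear receptor gene induced by T cell receptor signals, at 9.27, 8.88 and 9.15 in pancreas, against 6.70, 7.77 and 7.28 in spleen. No spleen array reached a pancreas array, and the fitted change was 1.85 ± 0.25 (SE, limma adjusted p = 0.00952). The call ended without pancreas array 1 (limma adjusted p = 0.0562), and in 2 of 11 other settings, with each array centred on its median or low values raised to background. Its relatives Nr4a1 (1.10, adjusted p = 0.188) and Nr4a3 (0.62, adjusted p = 0.311) did not pass, nor did Bach2 (-1.02, adjusted p = 0.0951), a repressor of effector differentiation, or Uhrf1 (0.99, adjusted p = 0.108), which maintains DNA methylation. The IL-2 signal transducers Stat5a and Stat5b were at -0.03 and -0.0070, and Cbfb, the partner of RUNX proteins, at -0.05. These genes were named after their values were seen, and the 25 regulators ran from -1.02 to 1.85.

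Of 26 measured Foxp3 protein partners 0 passed in either direction, beside 0.678% of all genes, and 3 had an unadjusted limma p under 0.05, beside 6.84%. These counts are near the shares over all genes, and the median was -0.02. Those with the smallest p were Lef1 (-0.69, adjusted p = 0.116), a transcription factor of naive T cells, Irf4 (0.61), Rora (0.43), Ezh2 (0.35) and Pim1 (0.66). Ikaros family proteins repress genes through subunits of the NuRD and Sin3 complexes and CtBP proteins. Of 18 such genes 0 passed, beside 0.678% of all genes, and 0 had an unadjusted limma p under 0.05, beside 6.84%. At those shares the counts are no result about the 18 genes. Their log2 fold changes ran from -0.36 to 0.16, with a median of -0.02. The deacetylase genes Hdac1 and Hdac2 were at -0.29 and -0.30, the NuRD helicase gene Chd3 at -0.36, Sin3a at -0.29 and Gatad2b at -0.24. Ctbp1, which links Eos to repression of Foxp3 targets, was at -0.02.

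The cereblon ubiquitin ligase marks Ikaros and Aiolos for destruction when immunomodulatory drugs such as lenalidomide bind it in human cells. Of its 5 subunit genes 0 passed, beside 0.678% of all genes, a count near that share. Crbn, the substrate receptor, was at 9.71, 9.63 and 9.55 in pancreas, against 10.13, 10.09 and 9.93 in spleen, without overlap (-0.42, limma adjusted p = 0.525). Of the 5 genes, 1 was lower in pancreas without overlap and 1 higher, against 5.81% and 4.57% of all genes. The subunits other than Crbn were Cul4b at -0.35, Cul4a at -0.07, Ddb1 at 0.02 and Rbx1 at 0.21.

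Of the genes linked to Foxp3 activation, 6 passed the test and 20 did not. Of 26 measured genes described as raised with Foxp3 or in effector Treg cells, 5 rose and 1 fell, against 0.547% and 0.132% of all genes. The median log2 fold change was 0.40. The list was drawn up with earlier results of these data known, so its count is a description. Those that rose were Il10, an anti-inflammatory cytokine gene, Ccr8, a chemokine receptor gene of tissue Treg cells, Fgl2 and Prdm1 of effector Treg cells, and Tigit, a co-inhibitory receptor gene. Ccr8 was at 9.91, 9.98 and 9.84 in pancreas, against 7.57, 8.33 and 8.30 in spleen, with a log2 fold change of 1.84 (limma adjusted p = 0.00362). Il10 had all 3 spleen arrays below background and was at least 8.41-fold higher in pancreas (limma adjusted p = 7.72e-05). Here the background intensity stands in for the spleen level. The gene that fell was Gpr83, a G protein-coupled receptor gene abundant in Treg cells, at 9.79, 9.81 and 9.48 in pancreas, against 10.70, 11.03 and 11.12 in spleen (-1.26, limma adjusted p = 0.0125). Among 6 fits with 1 array left out, Il10 and Ccr8 passed in 6, Gpr83 in 4, Fgl2 in 2, and Prdm1 and Tigit in 1, the fit without pancreas array 3. Gpr83 was lost without spleen array 2 or 3, and Fgl2 without pancreas array 1 or 2 or spleen array 1 or 2. With each array centred on its median, 2 of the 26 rose and 0 fell.

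Genes known to be repressed by Foxp3 or low in Treg cells had a median log2 fold change of -0.51 over 16 measured, of which 1 rose and 1 fell, against 0.547% and 0.132% of all genes. The count that fell depended on the setting, with 5 under quantile normalization, 8 with array weights and 0 with each array centred on its median. The one that rose was Ifng, the interferon gamma gene, at 8.19, 7.92 and 7.95 in pancreas, against 6.61, 6.98 and 6.54 in spleen (1.31, limma adjusted p = 0.00952). It passed in all 6 fits with 1 array left out. The one that fell was Dapl1, a gene of naive T cells, at 7.93, 7.51 and 7.28 in pancreas, against 8.92, 8.69 and 8.40 in spleen (-1.10, limma adjusted p = 0.0495). The Dapl1 call passed in 2 of these leave-one-out fits, those lacking pancreas array 1 or pancreas array 3, and did not in 6 of the 11 other settings. Igfbp4 (-0.92), Actn1 (-0.99) and Themis (-0.82) did not pass. For 9 of the 16 genes the arrays did not overlap and were lower in pancreas, against 5.81% of all genes. This list, too, was drawn up with earlier results of these data known, so its counts are a description. Il2, the best known gene under Foxp3 repression, was below background on all 6 arrays, as were Il4 and Il21.

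The short list of Treg identity genes had 12 measured members, Foxp3, Ikzf2 and Ikzf4 among them, and a median of 0.03. Tigit rose and Gpr83 fell, as above. Ctla4 (0.60), Capg (0.80) and Izumo1r (-0.44) did not pass. Il2ra, which encodes the high-affinity IL-2 receptor chain, was at -0.32, with an adjusted p of 0.842.

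**Figure D4:**
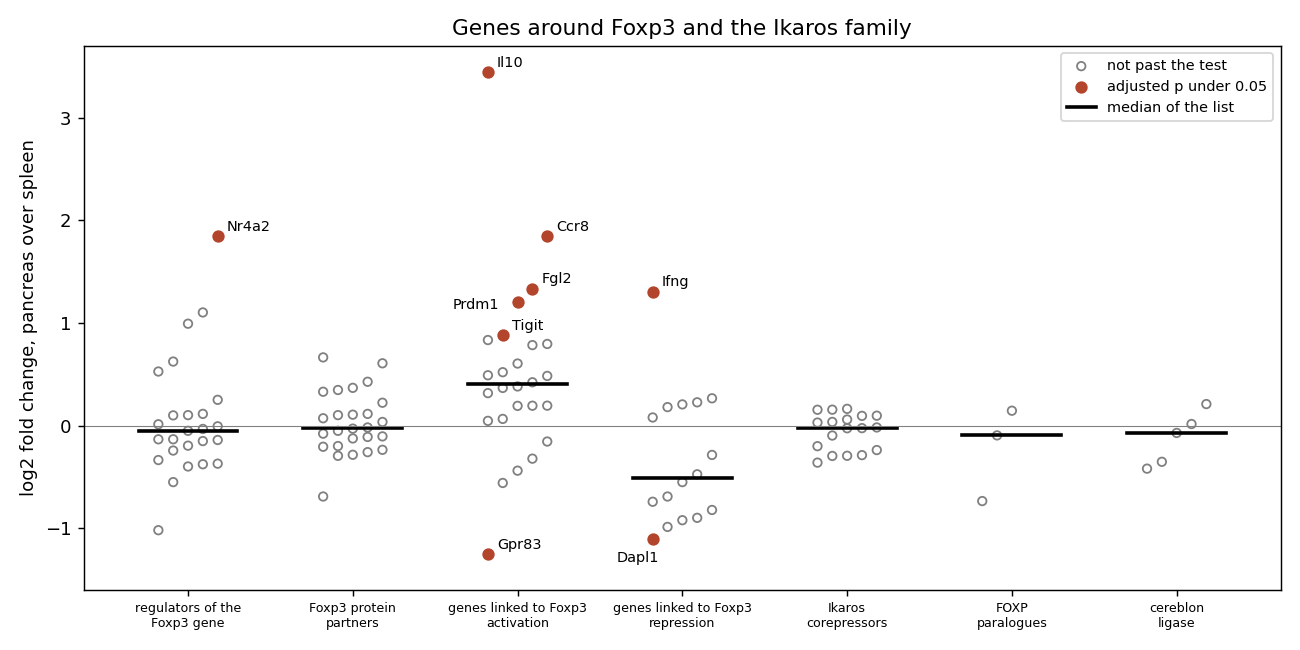
Log2 fold change, pancreas over spleen (y axis), of the genes of 7 lists around Foxp3 and the Ikaros family (x axis), with genes past the test filled and named, the others open, and the list's median as a bar. The genes linked to Foxp3 activation spread from Gpr83 at -1.26 to Il10, whose plotted value is the fitted one, while the corepressors lie between -0.36 and 0.16.

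Markers of other cells were also measured on these arrays, and Ikzf1 and Ikzf3 are active in several of those cells. Of 20 acinar genes 16 rose, against 0.547% of all genes, with a list mean of 9.22, 10.03 and 8.73 on pancreas arrays 1 to 3, against 6.17 and 6.04 on spleen arrays 1 and 2 and a higher value, still below every pancreas array, on spleen array 3. Spink1 was below background on all arrays. The count was 8 without pancreas array 1, 7 with median centring and 0 with low values raised to background, while the list's median stayed between 2.36 and 3.80 in all 17 other settings. The 3 largest changes were in Ctrb1 (4.57), Clps (4.37) and Cpa1 (4.33). The other 13 that rose were Rnase1, Zg16, Try5, Ctrl, Cela2a, Prss2, Cpb1, Sycn, Cel, Pnliprp1, Gp2, Try4 and Cela3b. Of 14 B cell genes 1 rose, Cd79a (at least 2.91-fold higher, limma adjusted p = 0.0482), beside 0.547% of all genes, and all 14 had a higher mean in pancreas. The count was 5 without pancreas array 2 and 3 without pancreas array 3, and 0 in 4 of the fits lacking an array. It was 4 with array weights, 4 with the replicate number as a block, 3 with trended and robust variance and 2 with only genes above background. It was 0 with median centring, quantile normalization, or equal median and width. Centring on the T cell identity list, a pseudocount of 16 and low values raised to background also gave 0. The Cd79a call did not survive the loss of pancreas array 1 or of any single spleen array, and held in 5 of 11 other settings. Their list mean was 6.27 to 7.33 in pancreas, against 5.78 to 6.09 in spleen. Ms4a1, a defining B cell gene, was at least 2.89-fold higher by its means, with all 3 spleen arrays below background, and did not pass (limma adjusted p = 0.0678). Fcer2a was at least 1.78-fold higher by its means, also without passing.

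The mean of the B cell list had a positive correlation with Ikzf2 and negative ones with the other Ikaros family genes. Over 6 arrays it correlated with Ikzf1 at -0.32, with Ikzf3 at -0.48 and with Ikzf2 at 0.69. Tissue means were not removed here, so the difference between tissues is part of these values. Pancreas array 2, the pancreas array with the lowest B cell list mean, was not the lowest pancreas array for Ikzf1 or Ikzf3 but was for Ikzf2. The part of B cell RNA in the Ikzf1, Ikzf2 or Ikzf3 values was not tested, and the order of 3 arrays cannot decide it. Of 6 plasma cell genes 1 rose, Jchain (at least 4.82-fold), beside 0.547% of all genes. The plasma cell list mean was 6.67 to 7.03 in pancreas, against 6.01 to 6.18 in spleen, with Tnfrsf17 below background on all arrays. Of 19 macrophage and dendritic cell genes 4 rose, Lyz2, H2-Aa, H2-Ab1 and H2-Eb1, beside 0.547% of all genes. Csf1r, Adgre1, Itgax and 6 others of this list were below background on all arrays. That list's mean was 6.32 to 6.54 in pancreas and lower on all spleen arrays, the lowest at 5.81. Of 11 CD8 T and NK cell genes 1 rose, Klrd1, beside 0.547% of all genes. Klrd1 was below background on all arrays, as were 5 others. The Klrd1 call ended in 4 of 6 fits lacking an array and in 6 of 10 other settings, the replicate block among them (limma adjusted p = 0.0812). The list mean was 5.80 to 6.06 in pancreas, against 5.48 to 5.56 in spleen. Of 8 islet genes 0 passed, beside 0.678% of all genes, with 1 at an unadjusted limma p under 0.05, beside 6.84%. Gcg, Iapp and Pcsk1 were below background on all arrays. The part of these cells in the values of the 6 genes was not tested.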

How the data were processed

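Gene expression of sorted Treg cells was measured on 6 arrays, 3 of pancreas and 3 of spleen, grouped by the tissue in the titles. The deposited table holds linear probe-set intensity values, made by the authors with Affymetrix Power Tools and RMA per the submitters' processing notes, which give no versions. Any step that made the arrays comparable was not stated in these notes. The values were taken to log2 with no pseudocount or filter.

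Of 24922 probe sets, 21425 name 1 gene, 1399 several and 2098 none in the platform annotation. Only the first were used, with the highest mean over 6 arrays for a gene with several, which left 19752 genes. Of the 21425, 21347 matched the RefSeq table by gene ID. Background came from 1194 receptor genes.

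Genes were compared with limma (3.58.1 in R 4.3.3) on all 6 arrays, two-sided. P-values were adjusted over all genes by Benjamini-Hochberg, and 0.05 was the threshold. The fit was tested on simulated data. Shifts against Foxp3 were tested by exact permutation. Figures used matplotlib 3.10.9. The genes and lists were chosen with earlier results of these data known. A lower bound on a fold compares the tissue means after spleen arrays below background are raised to that level. It does not allow for the spread of the arrays. Named are the 6 genes, every list member past the threshold, up to 5 of each list around them with the smallest p, up to 3 of each list of other cells with the largest change, and the 3 genes of closest pattern (SD of at least 0.2 over arrays). Genes named outside this rule, such as Stat5a, Cbfb, Ctbp1, Il2 and Il2ra, were chosen after their values were seen. Alternatives covered scaling, pseudocount, background, dim genes, probe sets, variance model, array weights, a block on the replicate number, and leaving out every array in turn.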

Additional observations from a re-analysis of the deposited data

How the results depend on the processing

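None of the 6 genes passed the limma test under any of 17 alternatives each, 102 fits in all, and 15 of these changed the sign of a difference close to 0. With the same median and interquartile range on each array, the log2 fold changes were 0.17 for Foxp3, 0.031 for Ikzf1, 0.028 for Ikzf3 and 0.047 for Ikzf5. Ikzf4 was at -0.0043 after centring arrays on their medians, and Ikzf2 at -0.034 with array weights. With 1 array left out, the values ran from -0.22 to 0.072 for Foxp3, -0.33 to 0.010 for Ikzf1, 0.048 to 0.18 for Ikzf2, -0.24 to 0.021 for Ikzf3, -0.11 to 0.11 for Ikzf4 and -0.096 to 0.050 for Ikzf5. Relative to Foxp3, 5 of 55 values changed sign. Ikzf5 was at 0.086 with quantile normalization and Ikzf4 at -0.066 with equal median and width, and without 1 array the range was -0.10 to 0.14 for Ikzf5. The count of 134 genes past the test was 38 after median centring, 203 with quantile normalization, 71 with equal median and width, 84 with a pseudocount of 16, 3 with values under background raised to it, and 1684 with array weights. Raising values to background left 6588 genes with no spread. The weights were estimated gene by gene, since the default estimate did not converge, and were largest on pancreas array 2 (3.15) and spleen array 2 (4.01). With 1 array left out, the count was lowest, 64, when spleen array 1 was dropped and highest, 262, when pancreas array 3 was. The share of these calls that were higher in pancreas was 80.6%, against 92.4% with arrays centred on the T cell identity list, 43.0% with array weights and 51.1% without pancreas array 1. The cause of these changes was not tested. Deviations of same-numbered arrays from their tissue means correlated at -0.18, 0.05 and -0.63. With 3 arrays a tissue, these values cannot decide whether the replicate numbers pair the samples. With the replicate number as a block the count was 132, no member passed (Foxp3 -0.04 and Ikzf2 0.12, adjusted p = 1.00), and the calls of Tigit (adjusted p = 0.162) and Klrd1 (0.0812) ended. With 3 arrays a tissue, differences inside the intervals of these 6 genes cannot be told from no difference. The intervals are not adjusted for the number of genes, so larger differences can also miss the adjusted threshold, as that of Foxp1 did.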
